A study of Homo sapiens with 6 samples.

Results

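The kinases that activate JNK and p38 form a relay of MAP kinases that answers to stress and cytokines, and 10 of its genes were examined in 786-O, a long-established line of human renal carcinoma cells of the clear cell type. The listed genes were the JNK genes MAPK8, MAPK9 and MAPK10, the p38 gene MAPK14, the MAP kinase kinases MAP2K3, MAP2K4, MAP2K6 and MAP2K7, and the kinases above them, MAP3K1 and MAP3K5. Every probe set whose annotation names exactly 1 gene, and that gene a listed one, was taken. This gave 20 of the 49395 probe sets on the array, from 8 of the 10 genes, while MAPK14 and MAP2K7 were not analysed here. RNA came from 786-O cells that had received by lentivirus either a negative control short hairpin RNA (shNC, 3 arrays) or one aimed at PLEKHO1 (shPLEKHO1, 3 arrays). The shNC cells therefore carried a virus and a hairpin too. The labels do not say whether the 3 replicates of a group came from separate cultures, and the spread behind the p-values may therefore be technical.

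JNK and p38 are switched on in steps. A MAP kinase kinase kinase such as MAP3K5 phosphorylates a MAP kinase kinase, which in turn phosphorylates a threonine and a tyrosine in the activation loop of JNK or p38, and the active kinase then acts on transcription factors such as JUN and ATF2. Phosphatases of the DUSP family remove these phosphates and end the signal. In kidney epithelium the cascade is known for its part in the response to oxidative stress, injury and inflammation. The arrays measure messenger RNA and carry no information on phosphorylation.

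Of the 44988 probe sets tested, 33.0% changed. Median intensity per array was between 55.7 and 57.1, and log2 values of the tested probe sets correlated at 0.988 to 0.989 between arrays of different groups and at 0.998 within a group. The targeted gene PLEKHO1 read 135, 143 and 126 with shNC and 110, 116 and 97.4 with shPLEKHO1, a log2 difference of -0.32 ± 0.08 (SE, n = 3 arrays per group, adjusted p = 0.0124 in limma). Exact permutation of the arrays, two-sided, gave p = 0.1, the lowest value possible with 3 against 3. Of 7 markers of renal tubule and renal cell carcinoma 6 were measured, all above the median of the tested probe sets. Of these 5 fell, by log2 differences between -0.25 (PAX8) and -0.96 (CDH6), beside 15.6% of all genes read from their brightest probe set. The other, VIM, did not pass (0.04 ± 0.05) and made up most of the sum of the 6. The summed intensity ranged from 19104 to 19332 with shNC and from 18293 to 18467 with shPLEKHO1. Of 8 markers of leukocytes, endothelium, liver and muscle 7 were measured and 0 passed the threshold in limma, 0 of them at an unadjusted p under 0.05. Their summed intensity was 251 to 274 with shNC and 242 to 263 with shPLEKHO1. Of the 7, 2 lay above the median of the tested probe sets. These were VWF (means of 78.4 with shNC and 68.9 with shPLEKHO1) and DES (79.1 and 72.7). The lowest was the leukocyte marker PTPRC (6.39 and 6.82). In bulk RNA, fewer cells that express a gene and less RNA per cell cannot be told apart.

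The members of the cascade moved in both directions. MAP3K5, the stress-activated kinase at its top, was 2.62-fold lower with shPLEKHO1, and MAPK10 and MAP2K4 fell too, while MAP2K3 and MAPK8 rose. A log2 difference is the mean of log2(intensity + 1) with shPLEKHO1 minus that with shNC and is followed by its SE (n = 3 per group). The words "rose", "fell" and "changed" are used where the adjusted p in limma was under 0.05. Of the 20 probe sets 4 rose, 7 fell and 9 did not pass, beside 17.3% of all tested probe sets that rose and 15.7% that fell. The groups did not overlap in 13 of the 20, against 43.0% of all tested probe sets. The median log2 difference of the 20 was -0.081, and 0.011 over all tested probe sets, while the median size of the difference was 0.23 and 0.12. The count of 11 that changed was 7 without shNC replicate 1 and 7 without shNC replicate 3. Without the lowest 30% of probe sets it was 10 of 16, beside 48.2% of all probe sets then tested. Probe sets of the same gene share that gene's transcripts or some of them, and they are not replicates of each other.

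**Figure D1:**
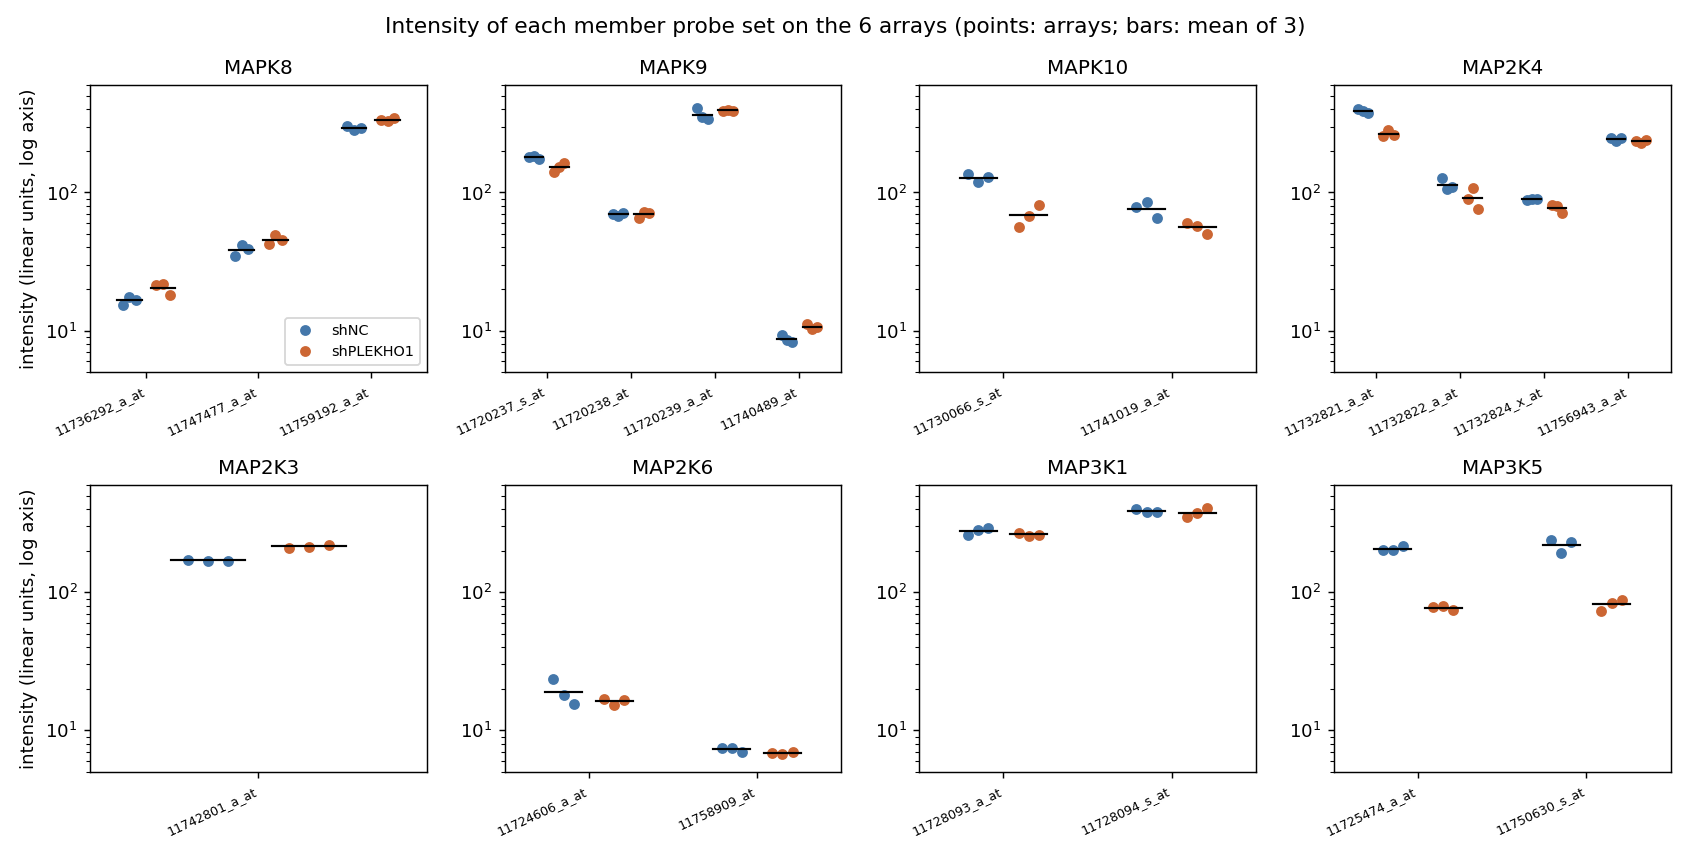
Intensity of the 20 probe sets on each array, in linear units on a log axis, in a panel for each of the 8 genes. Points are arrays, 3 with shNC and 3 with shPLEKHO1, and black bars are the mean of each group. Both probe sets of MAP3K5 show the widest gap between the groups, and both of MAP3K1 overlap.

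MAP3K5, also called ASK1, is a kinase that thioredoxin holds inactive until oxidative stress releases it. Its probe set 11725474_a_at read 202, 201 and 215 with shNC and 78.8, 78.8 and 74.5 with shPLEKHO1. The mean was 206 ± 8.05 and 77.4 ± 2.52 (SD, n = 3). The groups were far apart, and the 3 shPLEKHO1 values lay close together. The log2 difference was -1.39 ± 0.05, which is 2.62-fold lower with a 95% confidence interval from 2.40-fold to 2.86-fold (limma adjusted p = 1.70e-06). The other probe set, 11750630_s_at, read 237, 191 and 231 with shNC and 73.5, 84.1 and 88.0 with shPLEKHO1. Here too every shPLEKHO1 array was below every shNC array, by a log2 difference of -1.40 ± 0.09 (limma adjusted p = 1.66e-05). A test of whether the probe sets of a gene differ in their log2 difference (the F test of diffSplice in limma) did not call the MAP3K5 probe sets apart (F = 0.015, adjusted p = 0.964). Of all 44988 tested probe sets, 180 fell further than the first of these and 174 further than the other.

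RefSeq lists a pair of transcription starts for MAP3K5, and the 250 bases before each are shown because this gene had the largest change of the cascade. Those windows of MAP2K3 and MAPK10 that hold a match to a motif named below follow. The window before the most downstream start of each of these genes held no match and is not shown. MAP2K3 had the largest rise and MAPK10 the next largest fall after MAP3K5. The windows before the most upstream starts of MAP2K3 and MAPK10 each hold an AP-1 motif, the site that JUN and FOS proteins bind. Any part of the motif in the changes of these genes was not tested. The window before the middle of the 3 MAPK10 starts holds a cyclic AMP response element (CRE), the site of ATF2 and its relatives. All are from assembly GRCh38.p14, 5′ to 3′ on the gene's strand, and capitals mark matches on either strand to the AP-1 motif TGANTCA, the CRE TGACGTCA, the hypoxia response core ACGTG, the GC box GGGCGG, the CCAAT box CCAAT and the TATA box TATAAA, none of which contains another.
MAP3K5, chr6:136793092-136793341, minus strand: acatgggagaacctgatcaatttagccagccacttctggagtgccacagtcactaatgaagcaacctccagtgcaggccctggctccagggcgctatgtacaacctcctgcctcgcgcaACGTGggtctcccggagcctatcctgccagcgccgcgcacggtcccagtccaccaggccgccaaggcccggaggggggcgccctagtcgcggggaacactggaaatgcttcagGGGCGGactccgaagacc
MAP3K5, chr6:136792478-136792727, minus strand: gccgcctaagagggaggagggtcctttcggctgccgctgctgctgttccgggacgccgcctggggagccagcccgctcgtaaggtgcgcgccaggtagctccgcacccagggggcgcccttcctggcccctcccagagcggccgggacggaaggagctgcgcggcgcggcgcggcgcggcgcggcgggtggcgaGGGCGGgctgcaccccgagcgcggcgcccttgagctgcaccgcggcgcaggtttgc
MAP2K3, chr17:21284461-21284710, plus strand: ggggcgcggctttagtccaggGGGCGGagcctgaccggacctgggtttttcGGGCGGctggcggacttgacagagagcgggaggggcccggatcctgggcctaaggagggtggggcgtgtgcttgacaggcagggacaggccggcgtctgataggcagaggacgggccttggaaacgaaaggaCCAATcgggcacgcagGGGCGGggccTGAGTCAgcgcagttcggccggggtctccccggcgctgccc
MAPK10, chr4:86370868-86371117, minus strand: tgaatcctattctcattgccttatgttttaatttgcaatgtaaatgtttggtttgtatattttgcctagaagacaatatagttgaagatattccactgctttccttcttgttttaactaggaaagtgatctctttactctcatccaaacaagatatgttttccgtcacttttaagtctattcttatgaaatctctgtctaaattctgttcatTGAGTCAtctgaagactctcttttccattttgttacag
MAPK10, chr4:86360054-86360303, minus strand: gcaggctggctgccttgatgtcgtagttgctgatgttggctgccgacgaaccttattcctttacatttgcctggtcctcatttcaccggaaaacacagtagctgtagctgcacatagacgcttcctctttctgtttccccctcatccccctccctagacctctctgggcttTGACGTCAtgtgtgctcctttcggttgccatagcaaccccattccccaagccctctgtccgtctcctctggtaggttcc

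The windows of MAP3K5 held a GC box each, and that of the upstream start also the core ACGTG, with a GC content of 64.0% there and 77.6% in the other window. The MAP2K3 window shown held an AP-1 motif, 3 GC boxes and a CCAAT box. Of 35116 such windows over all genes in the table, 6.57% held the AP-1 motif, 1.65% the CRE, 18.5% the core ACGTG, 42.6% a GC box, 32.0% a CCAAT box and 10.7% a TATA box. RefSeq windows were found for 7 of the 8 measured genes, 14 in all. Among them 2 held the AP-1 motif, 1 the CRE, 4 the core ACGTG, 8 a GC box, 3 a CCAAT box and 1 a TATA box. The array does not show which start was used.

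MAP3K1, also called MEKK1, joins a kinase domain with a ubiquitin ligase domain and feeds mainly into MAP2K4 and JNK. Its probe set 11728093_a_at read 259, 284 and 289 with shNC and 268, 256 and 261 with shPLEKHO1. The other, 11728094_s_at, read 398, 379 and 378 with shNC and 348, 372 and 409 with shPLEKHO1. The groups overlapped in both. The log2 differences were -0.07 ± 0.07 (95% confidence interval from -0.23 to 0.09, limma adjusted p = 0.539) and -0.03 ± 0.07 (from -0.18 to 0.12, limma adjusted p = 0.773). These intervals leave out a change of the size seen for MAP3K5.

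The MAP kinase kinases divide by the kinase they serve. MAP2K4, also called MKK4, phosphorylates JNK and can act on p38. Its brightest probe set, 11732821_a_at, read 401, 391 and 378 with shNC and 257, 283 and 260 with shPLEKHO1. Every array of the first group was above every array of the other, and the fall was 1.45-fold with a 95% confidence interval from 1.34-fold to 1.57-fold (log2 difference of -0.54 ± 0.05, limma adjusted p = 9.68e-05). Probe set 11732824_x_at read 88.6, 89.3 and 89.7 with shNC and 80.7, 80.4 and 71.6 with shPLEKHO1, a smaller fall (-0.20 ± 0.06, limma adjusted p = 0.0289) that did not pass in 5 of 15 alternatives, with an adjusted p of 0.0153 to 0.0891 over them. Probe set 11732822_a_at overlapped between the groups, at 126, 105 and 109 with shNC and 89.8, 107 and 76.2 with shPLEKHO1 (-0.32 ± 0.12, limma adjusted p = 0.0682). It was called in 3 of 15 alternatives, with adjusted p from 0.0145 to 0.198, and with an array left out it lay between -0.44 (without shPLEKHO1 replicate 2) and -0.21 (without shPLEKHO1 replicate 3). Probe set 11756943_a_at overlapped as well, at 249, 237 and 246 with shNC and 237, 228 and 241 with shPLEKHO1 (-0.04 ± 0.05, limma adjusted p = 0.667).

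The 4 probe sets of MAP2K4 thus did not give the same size of change, and the diffSplice F test in limma called them different from each other (F = 6.74, adjusted p = 0.0128). The call was lost without shNC replicate 2 (adjusted p = 0.0770), without shNC replicate 3 (0.0547) and without shPLEKHO1 replicate 1 (0.109). This test treats probe sets of an array as independent measures. The mean of all 4 probe sets fell by 0.27 on the log2 scale (± 0.05 SE, limma adjusted p = 0.00219).

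MAP2K3, also called MKK3, activates p38 and was read by a single probe set. Probe set 11742801_a_at read 172, 168 and 169 with shNC and 209, 214 and 220 with shPLEKHO1. The groups did not overlap, and the rise was 1.27-fold with a 95% confidence interval from 1.18-fold to 1.38-fold (log2 difference of 0.35 ± 0.05, limma adjusted p = 0.000886). MAP2K6, also called MKK6, activates p38 as well. Its probe set 11724606_a_at read 23.5, 18.1 and 15.6 with shNC and 16.9, 15.3 and 16.5 with shPLEKHO1, and its probe set 11758909_at 7.45, 7.49 and 7.02 with shNC and 6.85, 6.72 and 6.97 with shPLEKHO1. Neither passed (-0.21 ± 0.13, limma adjusted p = 0.289, and -0.10 ± 0.05, limma adjusted p = 0.212). The first moved to -0.04 without shNC replicate 1 and to -0.34 without shNC replicate 3, and passed in neither case (limma adjusted p = 0.724 and 0.0727). Both lay below the median intensity of 57.9 of the tested probe sets, and the lower was near the level of the array's background probe sets, whose median per array was 7.58 to 8.05. For MAP2K6 a difference may therefore have been undetectable at this signal.

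**Figure D2:**
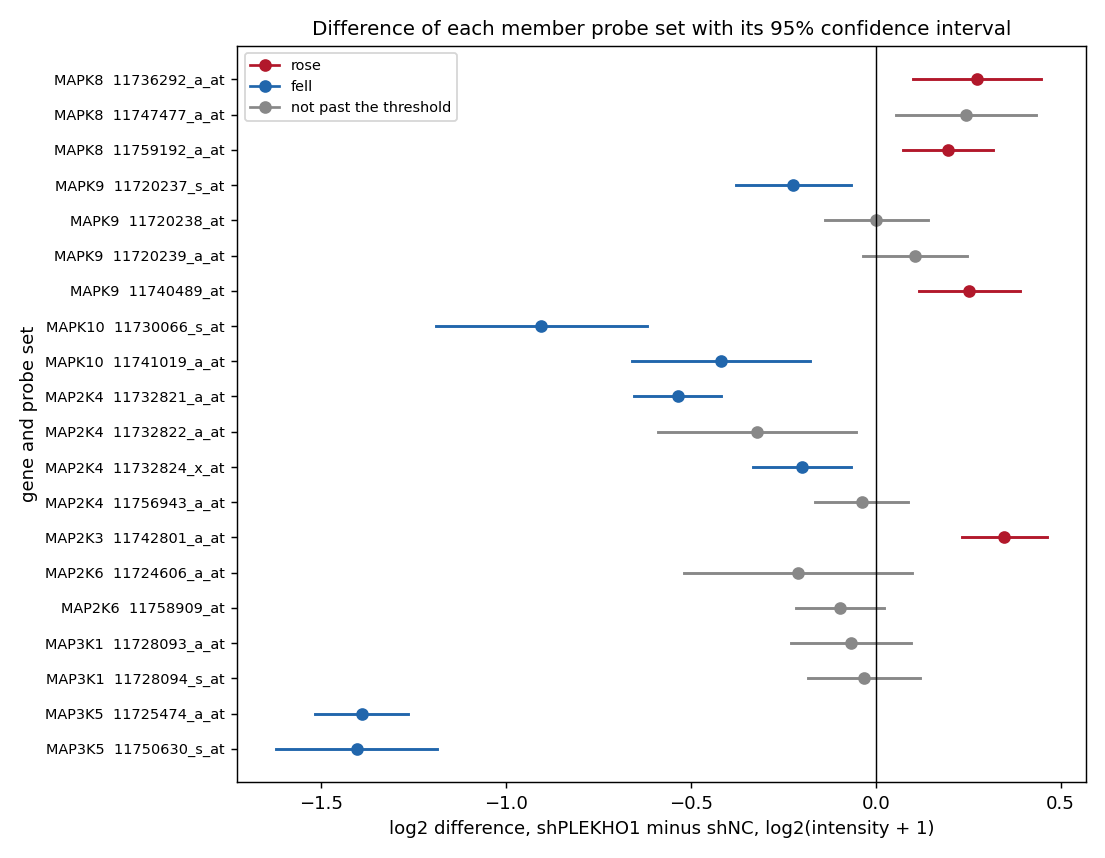
Log2 difference (shPLEKHO1 minus shNC, log2(intensity + 1)) of each of the 20 probe sets, with its 95% confidence interval from limma. Red marks those that rose, blue those that fell and grey those that did not pass. MAP3K5 lies near -1.4 by both of its probe sets, MAPK10 and MAP2K4 between -0.90 and -0.04, and MAP2K3 and MAPK8 above 0.

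Of the JNK genes, MAPK8 and MAPK9 are expressed in most tissues, while MAPK10 is best known from brain, heart and testis. MAPK10, also called JNK3, had the larger change. Its probe set 11730066_s_at read 135, 118 and 130 with shNC and 56.4, 68.0 and 81.3 with shPLEKHO1. The shPLEKHO1 arrays were all lower but spread widely. The fall was 1.87-fold, with a 95% confidence interval from 1.53-fold to 2.28-fold (log2 difference of -0.90 ± 0.12, limma adjusted p = 0.000699), and 1.66% of all tested probe sets fell further. Its other probe set, 11741019_a_at, read 78.0, 84.8 and 65.4 with shNC and 60.1, 57.5 and 50.5 with shPLEKHO1, again without overlap (-0.42 ± 0.10, limma adjusted p = 0.0149). That call was lost without shNC replicate 1 (adjusted p = 0.0514) and without shPLEKHO1 replicate 3 (0.0551), and over the alternatives it lay between 0.00310 and 0.0551. The probe sets of MAPK10 were not called different from each other (diffSplice in limma, F = 7.65, adjusted p = 0.0636), though they were in 4 of 15 alternatives.

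MAPK8, also called JNK1, was slightly higher by all 3 of its probe sets. Probe set 11759192_a_at, the brightest, read 304, 284 and 294 with shNC and 337, 328 and 344 with shPLEKHO1 (log2 difference of 0.20 ± 0.05, limma adjusted p = 0.0211). Probe set 11736292_a_at read 15.5, 17.7 and 16.6 with shNC and 21.3, 21.8 and 18.2 with shPLEKHO1 (0.27 ± 0.08, limma adjusted p = 0.0230). Probe set 11747477_a_at read 34.7, 41.4 and 38.9 with shNC and 42.3, 49.6 and 45.1 with shPLEKHO1, just outside the threshold (0.24 ± 0.08, limma adjusted p = 0.0523). In none of the 3 did the groups overlap, and the diffSplice F test in limma did not call them apart (F = 0.27, adjusted p = 0.900). Their mean was at 0.24 ± 0.05 (limma adjusted p = 0.00409). The single calls were fragile: the brightest was lost in 5 of 15 alternatives and 11736292_a_at in 4 of 14, with adjusted p up to 0.0764 and 0.0754, and 11747477_a_at was called in 7 of 15, from 0.0225 to 0.154.

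MAPK9, also called JNK2, had 1 probe set that rose, 1 that fell and 2 that did not pass. Probe set 11720237_s_at fell, from 181, 184 and 174 with shNC to 141, 154 and 163 with shPLEKHO1 (log2 difference of -0.22 ± 0.07, limma adjusted p = 0.0345). Probe set 11740489_at rose, from 9.27, 8.53 and 8.34 with shNC to 11.1, 10.2 and 10.7 with shPLEKHO1 (0.25 ± 0.06, limma adjusted p = 0.0109). Neither of these had overlapping groups, but the rise was read close to background, and with a pseudocount of 16 it shrank to 0.10 and did not pass (limma adjusted p = 0.0505). The brightest probe set, 11720239_a_at, read 408, 351 and 341 with shNC and 389, 397 and 390 with shPLEKHO1 (0.11 ± 0.06, limma adjusted p = 0.245). Probe set 11720238_at read 70.1, 67.0 and 71.2 with shNC and 64.9, 72.7 and 70.8 with shPLEKHO1 (0.0019 ± 0.06, limma adjusted p = 0.987). No other member had both a rise and a fall.

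The probe sets of MAPK9 were called different from each other (diffSplice in limma, F = 10.3, adjusted p = 0.00173), and this held in all 15 alternatives with adjusted p up to 0.0317. Of 7 members with several probe sets, MAPK9 and MAP2K4 were the 2 so called, against 23.7% of 11734 genes. That count was 1 without shNC replicate 3 and 1 without shPLEKHO1 replicate 1. The mean of the 4 probe sets of MAPK9 was at 0.03 ± 0.04 (limma adjusted p = 0.613). The fall of 11720237_s_at did not pass in 6 of 15 alternatives, 5 of them with an array left out, with adjusted p between 0.0109 and 0.109. The array's background probe sets, which match no transcript, were on average higher with shPLEKHO1 in 16 of 23 cases. The larger of these differences, 0.11 to 0.19 on the log2 scale, were in bright ones that read 42.0 or more. Those that read between 6.84 and 21.6, close to 11740489_at of MAPK9 and 11736292_a_at of MAPK8, differed by 0.0089 to 0.069. Their part in the rises of these dim probe sets was not tested.

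**Figure D3:**
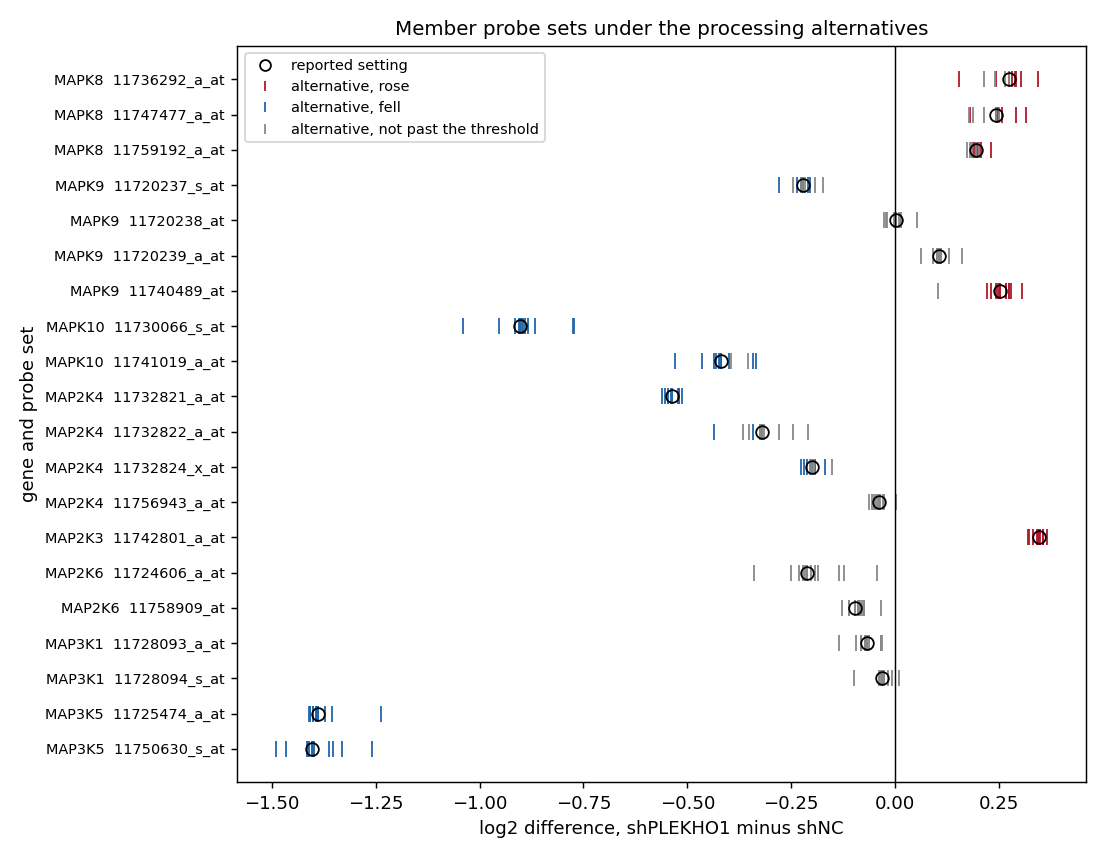
Log2 difference (shPLEKHO1 minus shNC) of each of the 20 probe sets in the reported setting (open circles) and in up to 15 alternatives of normalization, pseudocount, filter, model and arrays (ticks, coloured where past the threshold). Of the 11 that changed, 5 passed in every alternative: both of MAP3K5, 11730066_s_at of MAPK10, 11732821_a_at of MAP2K4 and 11742801_a_at of MAP2K3.

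Read from the brightest probe set of each gene, 2 of the 8 members rose, 3 fell and 3 did not pass, beside 17.6% of 18132 genes that rose and 15.6% that fell. With the mean over all probe sets of a gene, 5 of the 8 changed, beside 34.8% of genes. The probe set of another gene that most resembled MAP3K5 was chosen over the 6 arrays by the root mean square difference of log2 values centred per probe set, against 11750630_s_at. The nearest was SYNGR1, a protein of synaptic vesicles (0.060), followed by PLSCR1, a phospholipid scramblase (0.067), and C2orf68 (0.073). Their log2 differences were -1.42 ± 0.09, -1.48 ± 0.08 and -1.43 ± 0.09. With 2 groups of 3 arrays, such likeness rests mostly on the size of the fall.

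Around the members, other genes of the JNK and p38 modules moved in both directions. Of 73 genes in 8 lists 68 were measured, each by its brightest probe set, and 21 rose, 14 fell and 33 did not pass. That is 51.5% changed, beside 33.2% of all genes read in the same way. By list, 33.3% of the other MAP3K and TAO kinases changed, 42.9% of scaffolds and 45.5% of adaptors and regulators. It was 50% of transcription factors, 60% of MAP4K kinases and 66.7% of other p38 genes. Phosphatases stood at 70% and kinases downstream of p38 at 71.4%. Each list held only 3 to 15 measured genes. The lists were chosen with earlier results of these data known. Calls were also more frequent among brighter probe sets: without the lowest 30%, 48.2% of all probe sets tested changed. Any part of signal level in the share of 51.5% was not tested. The median log2 difference was 0.0019 for the 68 genes and 0.014 for all.

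Of 15 other MAP3K and TAO kinases 4 rose, 1 fell and 10 did not pass. The share that changed, 33.3%, was near the 33.2% of all genes. MAP3K7, also called TAK1, which carries signals from cytokine receptors, read 590, 541 and 531 with shNC and 717, 713 and 675 with shPLEKHO1. The groups did not overlap, and all 7 of its probe sets rose (0.34 ± 0.05, limma adjusted p = 0.00130). TAOK3 rose (0.33 ± 0.07), and MAP3K21, a mixed lineage kinase, fell from 453, 410 and 419 to 270, 260 and 284 (-0.65 ± 0.06, limma adjusted p = 7.57e-05). Of 5 measured MAP4K kinases, which act above the MAP3K tier, 2 rose and 1 fell. MAP4K4 (0.50 ± 0.06) and TNIK (0.29 ± 0.07) rose, with 1 of the 5 probe sets of MAP4K4 going the other way. MAP4K5 fell 1.62-fold by 3 of 3 probe sets (-0.70 ± 0.05).

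Adaptors and regulators that bind MAP3K proteins were measured for 11 of 13 genes, of which 3 rose and 2 fell. GADD45A, a stress protein that activates MAP3K4, read 2432, 2220 and 2349 with shNC and 4829, 4892 and 4683 with shPLEKHO1. Every shPLEKHO1 array was above every shNC array, a 2.06-fold rise (1.04 ± 0.05, limma adjusted p = 3.45e-06). TRAF6, the ubiquitin ligase that links receptors to MAP3K7, rose (0.46 ± 0.06). The small GTPase CDC42 fell (-0.39 ± 0.06) with 8 of its 9 probe sets. Thioredoxin, TXN, which restrains MAP3K5, did not pass (-0.015 ± 0.06, limma adjusted p = 0.878). Of 7 measured scaffold genes 3 rose and 0 fell. These were MAPKBP1 (0.70 ± 0.06, 3 of 4 probe sets), SH3RF1 (0.39 ± 0.07, 1 of 3) and WDR62 (0.35 ± 0.08, 1 of 3). The mean of all WDR62 probe sets did not pass (0.13, limma adjusted p = 0.286).

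Among the other p38 genes, MAPK13 rose, from 22.2, 29.7 and 27.6 to 38.6, 36.6 and 37.1, at a level below the median of the tested probe sets (0.49 ± 0.09, limma adjusted p = 0.00310). Of the 3 MAPK13 probe sets 2 rose. MAPK12 fell by a small amount (-0.20 ± 0.05), by 2 of 3 probe sets. MAPK11 did not pass by its brightest probe set, though 1 of its 3 fell. Of 7 kinases that p38 activates 2 rose and 3 fell. RPS6KA5, also called MSK1, a kinase of histone H3 and CREB, rose 1.61-fold by its brightest probe set (0.69 ± 0.05). Of its 4 probe sets 3 rose. MAPKAPK2, also called MK2, which stabilises cytokine messenger RNAs, fell by 1 of its 2 probe sets (-0.34 ± 0.05). The mean of both was at -0.22. MKNK2, a kinase of the initiation factor eIF4E, fell by its brightest probe set only, 1 of 5 (-0.52 ± 0.05).

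Of 10 transcription factors that JNK or p38 phosphorylate 3 rose and 2 fell. JUN, the substrate that gave JNK its name, read 605, 615 and 612 with shNC and 899, 891 and 874 with shPLEKHO1. These groups were tight and did not overlap (0.53 ± 0.05, limma adjusted p = 0.000119). Of the 4 JUN probe sets 3 rose. ATF7 rose by 1 of its 5 probe sets (0.64 ± 0.06), and DDIT3, also called CHOP, fell by both of its probe sets (-0.51 ± 0.08). ATF2 was at 0.0016 ± 0.05 by its brightest probe set and did not pass, though 2 of its 5 probe sets rose.

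Phosphatases that act on JNK and p38 or on their activators changed in 7 of 10 cases, with 3 that rose and 4 that fell. DUSP1 read 575, 520 and 541 with shNC and 1188, 1232 and 1267 with shPLEKHO1, a 2.26-fold rise by its brightest probe set. All 4 of its probe sets rose, with a mean log2 difference of 1.04. DUSP10, which prefers JNK and p38 to ERK, rose by 4 of 4 (0.63 ± 0.05). DUSP16, a JNK phosphatase, fell by 1 of its 3 probe sets (-0.48 ± 0.06), and PPM1B fell by all 5 (-0.57 ± 0.06). PPM1A depended on the probe set read: its brightest rose (0.48 ± 0.05) while the other 4 fell. The mean of all 5 was at -0.26.

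The neighbouring ERK1/2 and ERK5 modules are given for comparison. Of 7 measured genes of 10, 2 rose and 3 fell, which is 71.4% changed beside 33.2% of all genes. MAP2K1, also called MEK1, read 1448, 1235 and 1227 with shNC and 668, 739 and 726 with shPLEKHO1, a 1.83-fold fall by 3 of 3 probe sets (-0.87 ± 0.06, limma adjusted p = 2.54e-05). MAPK3, also called ERK1, fell as well (-0.73 ± 0.05). MAP2K5 rose by 1 of 4 probe sets (0.20 ± 0.05), and the mean over all 4 did not pass (0.023, limma adjusted p = 0.823). The difference between the ERK genes and the JNK and p38 genes was not tested.

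**Figure D4:**
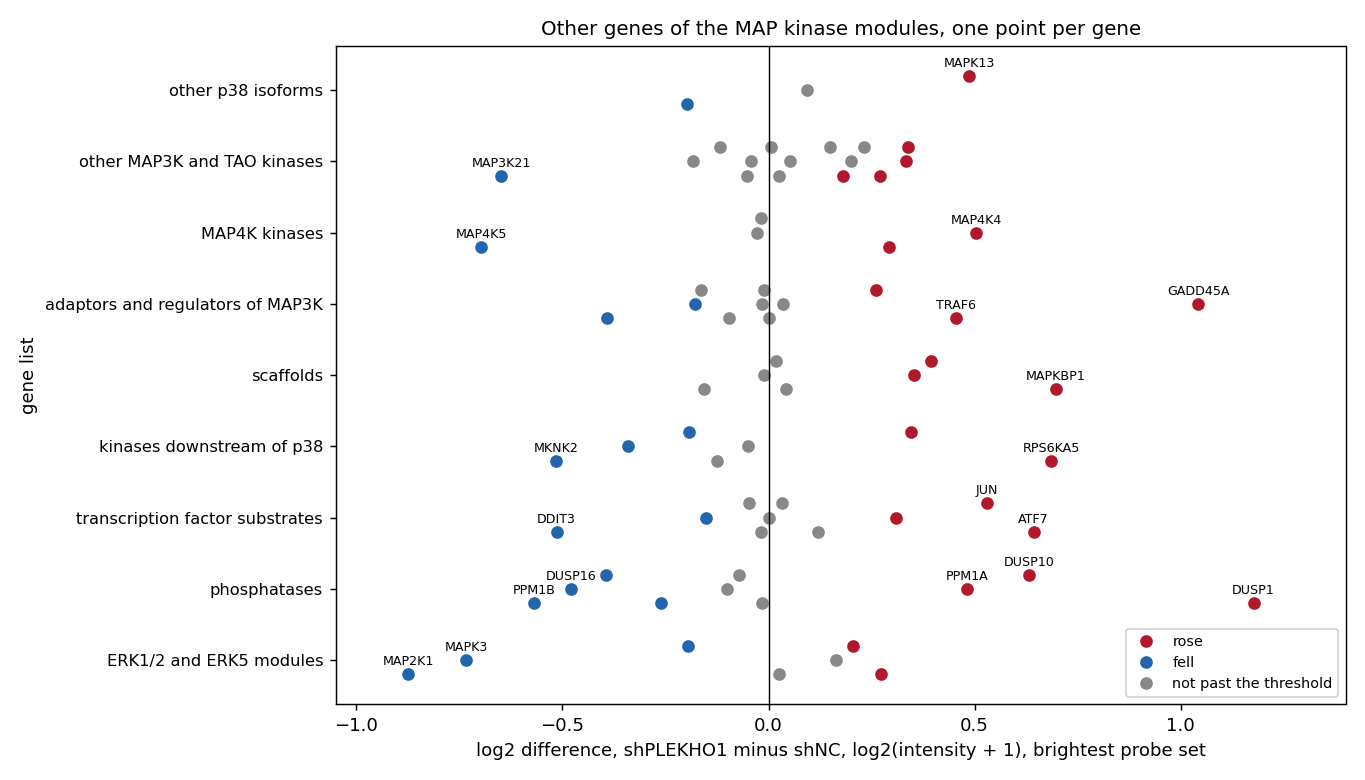
Log2 difference (shPLEKHO1 minus shNC, log2(intensity + 1)) of the 75 measured genes of the JNK, p38 and ERK lists, with 1 point per gene from its brightest probe set and a row per list. Red marks genes that rose, blue those that fell and grey those that did not pass, and genes past 0.45 in either direction carry their names. DUSP1 and GADD45A lie farthest to the right, MAP2K1 and MAPK3 farthest to the left, and every list except the scaffolds has genes that rose and genes that fell.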

How the data were processed

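Total RNA of 6 single-colour Affymetrix arrays was measured, 3 per group. The authors deposited linear intensity values, 1 per probe set and array, and the submitters' processing notes name Affymetrix Expression Console; the algorithm, and whether arrays were normalized to each other, is not given in the sources used here. Values ran from 4.33 to 19770. The number of arrays limits the precision.

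Of 49395 probe sets, 44994 had exactly 1 gene symbol, 1832 several and 2569 none; only the first were tested, without the 6 that are among the 102 controls, which left 44988. Current symbols were taken by Entrez identifier from the RefSeq table of GRCh38.p14 (44961 matched, 27 kept their names). Intensities were transformed as log2(intensity + 1), where the pseudocount of 1 understates changes of dim probe sets, and quantile normalized. The comparison used limma 3.58.1 (lmFit, eBayes; R 4.3.3), with Benjamini-Hochberg adjustment over all 44988 and a threshold of 0.05. The diffSplice F test was adjusted over 11734 genes. The steps were tested on simulated data.

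Named genes are every member probe set, PLEKHO1, up to 3 changed genes with the smallest p per list, and the 3 nearest to MAP3K5. Values of TXN, ATF2, MAPK11, PPM1B and DUSP16 were chosen outside this rule after they were seen. Members and lists were chosen with earlier results of these data known. Alternatives covered pseudocount, normalization, dim probe sets, probe sets tested, variance model, array weights, a replicate block, each array left out, and the mean of a gene's probe sets. Replicate numbers showed no pairing of the arrays (correlations of deviations of -0.15, -0.15 and -0.040), which 3 arrays per group cannot settle.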

Additional observations from a re-analysis of the deposited data

Results flagged for a closer look

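A pair of probe sets annotated to both MAP2K4 and its pseudogene MAP2K4P1 lay outside the comparisons, and the signal of 11732823_s_at was lower with shPLEKHO1. It read 112, 112 and 113 with shNC and 93.9, 107 and 97.3 with shPLEKHO1, without overlap (log2 difference of -0.17 ± 0.06, limma adjusted p = 0.0497 over all non-control probe sets). The other, 11754877_s_at, overlapped between the groups (-0.11 ± 0.06, limma adjusted p = 0.234).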

How the results depend on the processing

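PLEKHO1 and the members kept their direction wherever a probe set was called, with 0 reversals. PLEKHO1 passed in all 15 alternatives (limma adjusted p from 0.00254 to 0.0444). Of the 11 member probe sets that changed, 5 passed in all alternatives and 6 lost the call in at least 1, while 2 others gained it in at least 1 and 7 were not called in any. With an array left out, the count of member probe sets that changed ran from 7 to 10, those that rose from 2 to 4 and those that fell from 4 to 7; pathway genes that changed ran from 33 to 38, member genes by the brightest probe set from 4 to 5, and members whose probe sets differ from each other from 1 to 3. The lowest of these member counts came without shNC replicate 1 (7 changed, 4 fell) and without shNC replicate 3 (7 changed, 2 rose). Leaving out the lowest 30% of probe sets removed 4 member probe sets and left 10 that changed. Of all probe sets then tested, 48.2% changed, against 33.0% in the reported setting. With the replicate block 9 member probe sets and 33 pathway genes changed, and 28.8% of all tested probe sets changed. No array correlated best with its own number, so no pairing by number was visible, though 3 arrays per group are too few to settle it. With the mean of a gene's probe sets, 5 members and 40 pathway genes changed. The 40 were not all the same genes as by the brightest probe set. Among the other MAP3K and TAO kinases 7 rose and 2 fell by the mean, against 4 and 1 by the brightest. Of the phosphatases 2 rose and 5 fell, against 3 and 4. Signal near that of background probe sets limits MAP2K6, 11736292_a_at of MAPK8 and 11740489_at of MAPK9.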
